A study of Mus musculus with 8 samples.

Results

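The mRNA levels of 10 matrix glycoproteins were compared between wild-type medullary thymic epithelial cells (mTECs) and an Aire mutant clone, before and after thymocyte adhesion. The 10 genes were Fn1, Hspg2, Fbln2, Efemp2, Ecm1, Tnc, Thbs1, Spp1, Ctgf and Cyr61, listed by symbol from the 24052 symbols counted, and all 10 were among the 11672 genes with enough counts to be tested. They were selected from results of these same libraries, with the difference between the cell types in view, so for that difference their values, and the counts of them past the limits of a test, are a description and are no independent evidence. WT cells were mTEC 3.10, a C57BL/6 mouse thymic medulla line, and E6 cells were 1 clone of this line with Crispr-Cas9 indels in Aire, described in the study's methods as mutations of both alleles and in the labels as Aire KO with the genotype Aire +/-. Cells before adhesion were cultured alone, and cells after adhesion were co-cultured for 12 h with C57BL/6 thymocytes at 50 thymocytes per mTEC, washed and trypsinized. Each of the 4 conditions had 2 libraries, all from cells at passage 2, and the mTECs had been cultured for 24 h in WT after adhesion library 2 and in library 1 of both E6 conditions and for 12 h in the other 5 libraries. Because E6 is 1 clone, the Aire mutations and any other difference of that clone from the parent line cannot be told apart, and nothing in the labels states that the libraries of a condition came from separate experiments, so p-values measure the spread between these libraries.

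The extracellular matrix is the protein and polysaccharide scaffold that cells secrete and attach to. Fibronectin (Fn1) and perlecan (Hspg2) are structural parts of it, the first as fibrils bound by integrins and the second as the large heparan sulfate proteoglycan of basement membranes. Matricellular proteins, among them tenascin-C (Tnc), thrombospondin-1 (Thbs1), osteopontin (Spp1) and the CCN proteins (Ctgf and Cyr61), are secreted into the matrix but act mainly as signals to cells, through integrins and other receptors. In the thymus, epithelial cells and fibroblasts make matrix that developing thymocytes contact while they migrate between the cortex and the medulla.

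The libraries held 13506610 to 20145154 counts on genes (median 16312268.5), so 3 counts corresponded to 0.149 to 0.222 per 1000000 unscaled counts on genes. Levels are given as CPM (counts per 1000000), which use TMM-scaled library sizes. Aire itself had 0 to 3 counts in every library, which could not check the cell type labels. The libraries had the markers of epithelial cells, with the 20 epithelial and mTEC markers summing to 4791 to 6447 CPM, although 12 of the 20 passed the count filter and 1 was at 0 in every library. Krt8 was at 1378 to 2041 CPM and Epcam at 537 to 643 CPM, while Foxn1 was at 11.1 to 14.8 CPM and Krt5 at 0.213 to 1.02 CPM. Summed fibroblast markers were at 1.18 to 4.21 CPM and endothelial markers at 0 to 2.27 CPM. Summed thymocyte markers (16 genes in the files) were at 1.58 to 3.40 CPM in the 4 libraries before adhesion, at 20.7 and 31.4 CPM in WT after adhesion and at 132 and 164 CPM in E6 after adhesion. The protocol text of the E6 libraries before adhesion describes a co-culture although their source is given as without it, and these libraries held 3.40 and 2.14 CPM of thymocyte markers. WT after adhesion library 1 stood apart, with 66.7% of its alignments on genes, where the rest had 75.7% to 78.8%, and with log2 levels that fell by 0.457 per 10% of GC content against slopes of -0.023 to 0.132 elsewhere.

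E6 cells had more mRNA of 9 of the 10 matrix glycoproteins than WT cells in every library, and Thbs1 was the exception. Tnc differed most, at 4.22 times the WT mean, followed by the low Efemp2 at 3.95 times, while Ecm1, Spp1, Cyr61 and Fbln2 were at 1.93 to 2.09 times and Fn1, Ctgf and Hspg2 at 1.499 to 1.68 times. In bulk RNA, fewer cells of a type and less RNA per cell cannot be told apart. All 4 E6 libraries lay above all 4 WT libraries for these 9 genes, as they did for 15.7% of all tested genes. The median log2 fold change (FC) of the 10 genes between E6 and WT, averaged over both conditions, was 0.98, and that of all tested genes was -0.01. Of the 10 genes, 8 were differentially expressed (DE) upward and 0 downward, where DE means an FC of at least 1.5 and a Benjamini-Hochberg false discovery rate (FDR) under 0.05 by the quasi-likelihood test of edgeR. Among all tested genes 11.3% were DE in this contrast and 5.22% were DE upward, and nothing is read from the comparison because the genes were chosen with this contrast in view.

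**Figure D1:**
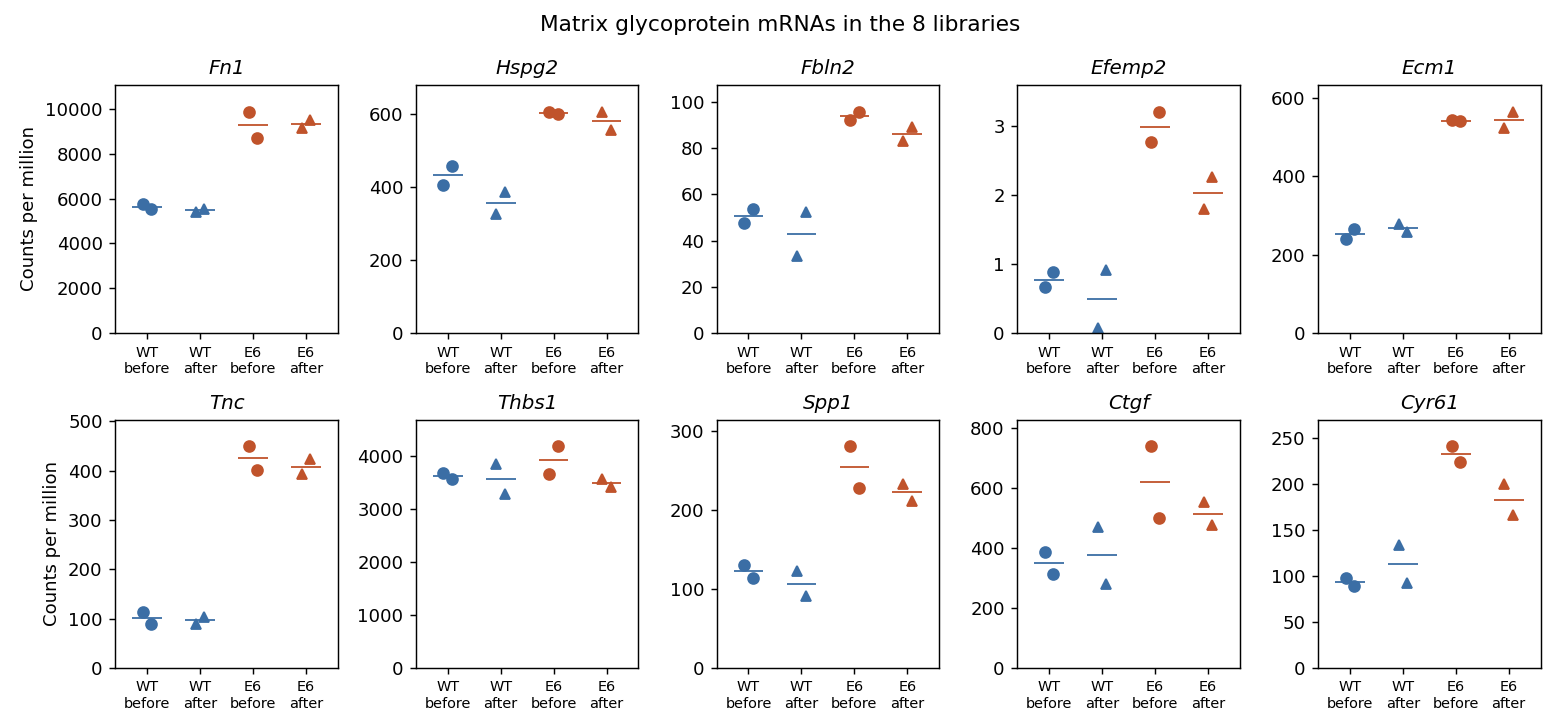
Level of each of the 10 mRNAs in CPM (y axis, starting at 0) in the 8 libraries, with circles for libraries before adhesion, triangles for libraries after adhesion and a bar for the mean of the 2 libraries of a condition. E6 libraries lie above the WT libraries in every panel but that of Thbs1, and for no gene do the libraries before and after adhesion separate over both cell types.

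Fibronectin, the integrin-binding fibril protein encoded by Fn1, was at 5758 and 5517 CPM in WT before adhesion and at 5412 and 5557 CPM after it. In E6 it was at 9888 and 8723 CPM before adhesion and at 9159.7 and 9524 CPM after it. The lowest E6 library was thus well above the highest WT library, and the libraries of a cell type lay close together (WT 5561 ± 145, E6 9324 ± 498, SD, n = 4). The log2 FC between E6 and WT was 0.75 (SE 0.09). Fn1 alone took 0.507% to 0.576% of all counts on genes in WT and 0.861% to 0.984% in E6. Fn1 occupies chromosome 1 from 71585520 to 71653200 (minus strand) on GRCm38, the build used for all positions here.

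Perlecan (Hspg2, chromosome 4 from 137468769 to 137570630, plus strand) was at 406 and 458 CPM in WT before adhesion and at 327 and 386 CPM after it. In E6 the values were 605 and 598 CPM before adhesion and 606 and 555 CPM after it. The 2 cell types did not overlap, and the WT library that stood apart in GC content was the lowest for this GC-rich gene (60.9% GC in its exons). The log2 FC was 0.59 (SE 0.09), close to the limit of 1.5-fold. It fell under that limit in 5 of 14 alternative fits, at 0.55 without WT after adhesion library 1 or without WT before adhesion library 1, at 0.56 without E6 after adhesion library 1 or with culture time as a term, and at 0.47 with a GC correction.

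The fibulin Fbln2, a protein of basement membranes and elastic fibres, was at 47.6 and 53.6 CPM in WT before adhesion and at 33.4 and 52.3 CPM after it. Its E6 values were 92.1 and 95.8 CPM before adhesion and 83.1 and 89.0 CPM after it. The groups did not overlap, and the log2 FC was 0.95 (SE 0.14). Fbln2 occupies chromosome 6 from 91212455 to 91272540 (plus strand).

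Fibulin-4, encoded by Efemp2 and required for the assembly of elastic fibres, was near the limit of detection in WT, with 11 and 12 counts before adhesion and 1 and 19 counts after it. E6 had 40 and 60 counts before adhesion and 30 and 38 counts after it. In CPM the WT libraries were at 0.0709 to 0.919 and the E6 libraries at 1.80 to 3.21, with no overlap. The log2 FC of 1.91 had the largest SE of the 10 genes (0.45), and Efemp2 was no longer DE when any 1 of the 2 WT libraries before adhesion or of the 4 E6 libraries was left out, with log2 FC between 1.82 and 2.02 in those fits. Without WT after adhesion library 2, in which case the library with 1 count stood alone for its condition, the log2 FC was 3.34. Efemp2 (chromosome 19 from 5473954 to 5482517, plus strand) shares 173 exon bases with Mus81 on the opposite strand, and the strand setting of the counting was not stated in the sources used here. Of the other genes described, 6 also share exon bases with an annotated gene, on the opposite strand for Fn1 (292 bases), Tnc (176), Thbs1 (208) and Ctgf (665) and on the same strand for Spp1 (309) and Ecm1 (63).

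Ecm1, encoding a secreted glycoprotein that binds perlecan and other matrix proteins, was at 239.8 and 265 CPM in WT before adhesion and at 278 and 257 CPM after it. In E6 it was at 541 and 540.2 CPM before adhesion and at 524 and 564 CPM after it. Its E6 libraries varied little among themselves (542 ± 16.7 CPM, SD, n = 4) and every one was far above the WT libraries (259.7 ± 15.9 CPM). The log2 FC was 1.06 (SE 0.08), the smallest SE of the 10. Ecm1 occupies chromosome 3 from 95734147 to 95739569 (minus strand).

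RefSeq promoter sequences on GRCm38.p6 matched 7 of the 10 genes (Hspg2, Tnc, Spp1, Cyr61, Fbln2, Efemp2 and Ecm1). The 250 bases before each annotated start were searched on both strands for the TEAD motif CATTCC, the AP-1 motif TGANTCA and the CArG box of serum response factor, motifs of factors that are known to act on matricellular genes in other cells. They were held by 12.6%, 6.75% and 1.47% of the 32851 mouse promoters of the same length, and among the 7 genes TGANTCA was found for Ecm1 alone, CATTCC for Cyr61 alone and the CArG box for none. A match is a description of the letters and not a binding site. The windows of Ecm1 and Cyr61 are shown with the match in capitals, and that of Tnc, the gene with the largest difference, is shown without capitals since none of the 3 motifs was found in it. They cover chr3:95739570-95739819, chr3:145649986-145650235 and chr4:64047016-64047265, all read on the minus strand.
Ecm1: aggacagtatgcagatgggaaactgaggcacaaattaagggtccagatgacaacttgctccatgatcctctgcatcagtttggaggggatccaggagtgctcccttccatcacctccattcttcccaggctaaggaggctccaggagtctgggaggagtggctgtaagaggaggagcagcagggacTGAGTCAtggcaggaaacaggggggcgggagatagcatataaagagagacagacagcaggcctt
Cyr61: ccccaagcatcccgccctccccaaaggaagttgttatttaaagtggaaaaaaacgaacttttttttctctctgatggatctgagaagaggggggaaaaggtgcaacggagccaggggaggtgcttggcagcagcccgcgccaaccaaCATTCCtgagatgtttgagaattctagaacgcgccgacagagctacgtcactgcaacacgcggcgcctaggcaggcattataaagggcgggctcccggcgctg
Tnc: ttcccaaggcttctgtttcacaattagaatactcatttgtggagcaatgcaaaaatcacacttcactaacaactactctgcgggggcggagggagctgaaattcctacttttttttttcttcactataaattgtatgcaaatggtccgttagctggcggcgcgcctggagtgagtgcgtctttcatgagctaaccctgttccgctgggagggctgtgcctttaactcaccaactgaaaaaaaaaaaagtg
The match began 64 bases before the start of Ecm1 and 103 bases before the start of Cyr61.

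Tenascin-C, the hexameric glycoprotein that is known to loosen the attachment of cells to fibronectin, had the largest difference between the cell types. Tnc was at 113 and 88.7 CPM in WT before adhesion and at 89.6 and 103 CPM after it. In E6 it was at 449.5 and 402 CPM before adhesion and at 392 and 423 CPM after it. Even the lowest E6 library, at 392 CPM, was far above the highest WT library at 113 CPM, and the means were 98.8 ± 11.9 CPM in WT and 417 ± 25.4 CPM in E6 (SD, n = 4). The log2 FC was 2.08 (SE 0.11), was 2.07 before and 2.08 after adhesion, and stayed between 1.99 and 2.17 when any library was left out. Tnc occupies chromosome 4 from 63959785 to 64047015 (minus strand).

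Thbs1, encoding thrombospondin-1, a matricellular protein that binds CD36 and CD47 and can activate latent TGF-beta, was the only one of the 10 whose cell types overlapped. It was at 3686 and 3565 CPM in WT before adhesion and at 3841 and 3281 CPM after it. In E6 it was at 3662 and 4185 CPM before adhesion and at 3568 and 3409 CPM after it. The highest and the lowest library were thus an E6 library and a WT library, and the ratio of the means was 1.03 (log2 FC 0.04, SE 0.10). The log2 FC was -0.01 without E6 before adhesion library 2. Thbs1 occupies chromosome 2 from 118111876 to 118127133 (plus strand).

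Osteopontin (Spp1, chromosome 5 from 104435118 to 104441050, plus strand) is a phosphorylated glycoprotein bound by CD44 and by integrins. It was at 131 and 114 CPM in WT before adhesion and at 123 and 90.6 CPM after it. In E6 it was at 281 and 228 CPM before adhesion and at 233 and 211 CPM after it. No E6 library reached down to the WT range, and the log2 FC was 1.06 (SE 0.13). The well-expressed genes of chromosome 5 (641 genes) had a median log2 FC of 0.33 between E6 and WT, and its part in the value of Spp1 was not tested.

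Of the CCN proteins, Ctgf (connective tissue growth factor, now Ccn2) varied widely between the libraries of a condition. It was at 386 and 313 CPM in WT before adhesion, at 472 and 279 CPM in WT after adhesion, at 739.9 and 500.0 CPM in E6 before adhesion and at 553 and 476 CPM in E6 after adhesion. The cell types did not overlap, but the lowest E6 library, at 476 CPM, was just above the highest WT library, WT after adhesion library 1 at 472 CPM. The log2 FC was 0.64 (SE 0.20), not DE, and was 0.87 and DE without that library. With all libraries kept, Ctgf was also DE under DESeq2, with a replicate block and with a GC correction, at a log2 FC of 0.65 in each. Ctgf occupies chromosome 10 from 24595442 to 24598683 (plus strand), a chromosome whose well-expressed genes had a median log2 FC of -0.37 (460 genes).

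Cyr61 (now Ccn1), the other CCN protein counted here, binds integrins and heparan sulfate. It was at 97.0 and 88.7 CPM in WT before adhesion and at 133 and 92.3 CPM after it. In E6 it was at 241 and 224 CPM before adhesion and at 199 and 166 CPM after it. All E6 libraries were higher, and the log2 FC was 1.01 (SE 0.13), with 1.32 before adhesion and 0.70 after it. Cyr61 occupies chromosome 3 from 145646976 to 145649981 (minus strand).

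Read per length, as CPM per kb of exons, Fn1 and Thbs1 dominated the 10 genes in both cell types. In WT, Thbs1 was first (592 ± 39.0 CPM per kb, SD over 4 libraries) and Fn1 second (476 ± 12.4), and in E6 Fn1 was first (798 ± 42.7) and Thbs1 second (610.2 ± 55.3), with no overlap between the pair in either cell type. Ctgf (127 ± 29.9) and Ecm1 (103 ± 6.30) followed in WT and overlapped, and so did Spp1 (69.5 ± 10.5) and Cyr61 (50.9 ± 10.2). In E6 the third was Ecm1 (215 ± 6.64), which overlapped Ctgf (198 ± 41.8), and Ctgf overlapped Spp1 (145 ± 18.1). Cyr61 was at 103 ± 16.1 in E6. Tnc was eighth in WT (12.7 ± 1.52), below Hspg2 (27.6 ± 3.79), and seventh in E6 (53.6 ± 3.26), above Hspg2 (41.3 ± 1.70). The low end was Fbln2 (7.34 ± 1.45 in WT and 14.1 ± 0.845 in E6) and Efemp2 (0.168 ± 0.104 and 0.664 ± 0.162). Among 11604 genes of known length, Fn1 ranked 40th in WT and 14th in E6 by this level, Tnc ranked 3932nd and 869th, and Thbs1 ranked 29th and 20th. Together the 10 genes took 1.00% to 1.09% of the counts on genes in WT libraries and 1.53% to 1.64% in E6 libraries.

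Before adhesion, 6 of the 10 genes were DE upward in E6 (Fn1, Tnc, Spp1, Cyr61, Fbln2 and Ecm1), with 5.01% of all tested genes DE in either direction and 2.45% upward. After adhesion, 6 were DE upward (Fn1, Hspg2, Tnc, Spp1, Fbln2 and Ecm1), with 8.91% of all tested genes DE in either direction and 4.85% upward. As for the average, nothing is read from these counts, since the genes were chosen with the difference between the cell types in view. The log2 FC of each gene in the 2 conditions lay within the 95% interval of the other condition for all but Cyr61, and the values before and after are set side by side in the plot of E6 against WT. The count before adhesion was 3 with culture time as a term, where 345 of all tested genes were DE. The count after adhesion was 0, with 0 of all tested genes DE, when only the 4 libraries compared were fitted. The counts also moved when any library was left out, and so did the count of DE genes among all tested. Each such fit left 1 library in a condition, so the moves are not read as a property of the 10 genes.

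**Figure D2:**
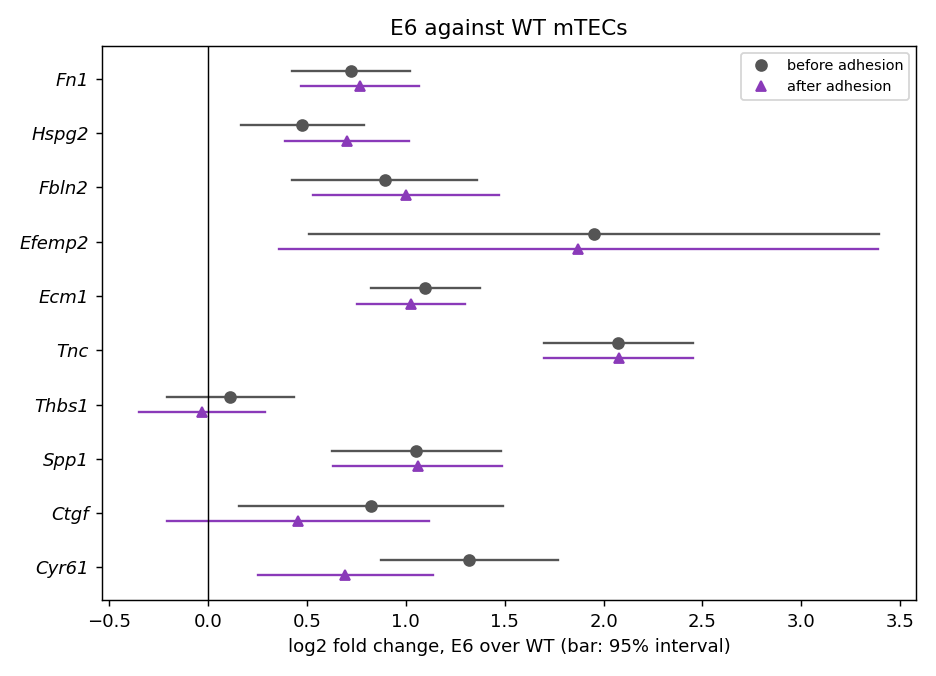
Log2 fold change of E6 over WT (x axis) for the 10 mRNAs before adhesion (circles) and after adhesion (triangles), from 2 libraries against 2 each, with bars for the 95% interval of the quasi-likelihood fit and a line at 0. Tnc and Efemp2 have the largest values, Efemp2 with the widest bars, and Thbs1 lies at 0.11 and -0.03.

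Culture time differed between libraries, so E6 and WT were also set side by side within each time. With 2 E6 and 3 WT libraries at 12 h and 2 E6 and 1 WT library at 24 h, the ratio of the means was 4.24 and 4.07 for Tnc, 1.64 and 1.71 for Fn1, and 2.12 and 2.08 for Ecm1. The ratios were 1.79 and 2.84 for Spp1, 1.83 and 2.38 for Cyr61 and 2.06 and 1.67 for Fbln2. They were 1.45 and 1.57 for Hspg2, 5.07 and 2.49 for Efemp2, 1.25 and 2.32 for Ctgf and 1.03 and 1.10 for Thbs1. Genes whose cell types were apart over all libraries are necessarily apart within each time. That separation is therefore no further evidence, and the ratios describe genes chosen with this difference in view.

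Over both cell types, none of the 10 mRNAs differed between the libraries after and before thymocyte adhesion by more than the spread between them. None was DE in this averaged comparison, where 1.89% of all tested genes were DE, and for none did the 4 libraries after adhesion lie all above (3.82% of all tested genes) or all below (1.70%) the 4 libraries before it. The smallest FDR among the 10 was 0.638, for Hspg2, none had an unadjusted p under 0.05 by edgeR, and DESeq2 also called 0. The median log2 FC of the 10 was -0.09, with 0.00 for all tested genes.

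The intervals of these changes were narrow for the well-counted genes. The ratio of after to before adhesion was 0.988 for Fn1 (95% interval 0.855 to 1.14), 1.03 for Ecm1 (0.904 to 1.18) and 0.957 for Tnc (0.801 to 1.14). It was 0.892 for Hspg2 (0.766 to 1.04), 0.934 for Thbs1 (0.799 to 1.09) and 0.872 for Spp1 (0.709 to 1.07). In this average over WT and E6, the interval of these 6 genes left out a change of 1.5-fold in either direction. So did that of Cyr61 (0.977, 0.788 to 1.21), of Fbln2 (0.882, 0.702 to 1.11) and of Ctgf (0.943, 0.682 to 1.305). Within 1 cell type the intervals were wider, and a 1.5-fold change was not left out for Hspg2 in WT (0.665 to 1.02). The same held in WT and in E6 for Spp1, Fbln2, Ctgf, Cyr61 and Efemp2. Cyr61 was at 1.21 (0.894 to 1.65) in WT and at 0.79 (0.581 to 1.07) in E6. In the average, the interval of Efemp2 (0.697, 0.332 to 1.46) reached past a 1.5-fold fall, so a fall of that size was not left out for this low gene.

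In WT cells alone 0 of the 10 were DE and 0.0% of all tested genes were, although 873 tested genes had an unadjusted p under 0.05 and DESeq2 called 59, none of them among the 10. The largest shifts among the well-counted genes were a log2 FC of -0.28 for Hspg2, for which both libraries before adhesion were above both after it, and 0.28 for Cyr61, with FDR of 0.620 and 0.628 (edgeR quasi-likelihood, Benjamini-Hochberg). In E6 cells alone 0 of the 10 were DE, against 2.00% of all tested genes, and the smallest FDR among the 10 was 0.987. Thbs1, Cyr61, Fbln2 and Efemp2 were higher in both E6 libraries before adhesion than in both after it, with log2 FC of -0.17, -0.35, -0.13 and -0.56, and none passed the test. The share of all tested genes that separate in this way, 2 libraries against 2, was not computed. Nothing is therefore read from these separations or from that of Hspg2 in WT.

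The difference of the adhesion effects between E6 and WT was tested as an interaction in the same fit. It was DE for 0 of the 10 and for 0.0% of all tested genes, with 297 tested genes at an unadjusted p under 0.05, and DESeq2 called 2 genes, neither of them among the 10. Cyr61 was the only one of the 10 with an unadjusted p under 0.05 (log2 difference -0.63, SE 0.27, FDR 0.988, edgeR quasi-likelihood). Its mean was higher after than before adhesion in WT and lower in E6, but the WT libraries overlapped. The WT library at 133 CPM after adhesion was library 1, which stood apart, and library 2 was at 92.3 CPM. Without library 1 the log2 FC of Cyr61 between E6 and WT was 1.32 before and 1.02 after adhesion. For Ctgf, a relative of Cyr61, the log2 difference was -0.37 (SE 0.40), and for Tnc it was 0.00 (SE 0.22). Leaving out WT after adhesion library 2, so that the library that stood apart was alone in its condition, made Ctgf (-0.68), Cyr61 (-0.84) and Efemp2 (2.75) DE for the difference, Efemp2 (-3.31) and Fbln2 (-0.61) DE for adhesion in WT and Efemp2 (-1.93) DE for adhesion averaged, in fits with 3049, 3550 and 1341 of all tested genes DE. No other library left out made any of the 10 DE in a comparison of adhesion.

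**Figure D3:**
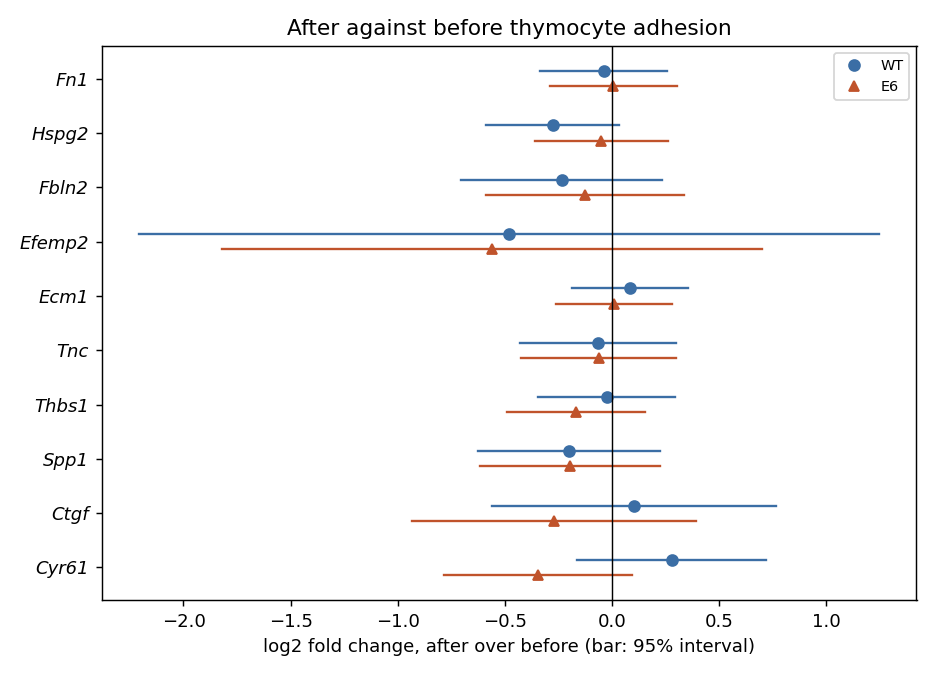
Log2 fold change of after over before thymocyte adhesion (x axis) for the 10 mRNAs in WT (circles) and E6 (triangles), from 2 libraries against 2 each, with bars for the 95% interval of the quasi-likelihood fit and a line at 0. Every bar crosses 0, the bars of Efemp2 are the widest, and Cyr61 lies at 0.28 in WT and -0.35 in E6.

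Partner and pathway genes of the 10 were taken from 8 lists, compared between E6 and WT averaged over both conditions in the same fit. The lists were chosen with earlier results of these data known. Their counts, medians and FDR, here and below, are thus a description and no independent evidence. Nothing is read from setting them beside all tested genes. Of 16 tested receptors of the 10 proteins, 2 rose, 1 fell and 13 did not pass the test (median log2 FC 0.39, with -0.01 for all tested genes, of which 11.3% were DE). Cd44, the receptor of osteopontin and hyaluronan, was at 482 ± 108 CPM in WT and 805 ± 42.7 CPM in E6 (log2 FC 0.75, FDR 0.0111, edgeR quasi-likelihood), and it was not DE in 5 of 14 alternative fits. Itgb6, the integrin chain that pairs with alpha v to bind fibronectin, tenascin-C and latent TGF-beta, rose by a log2 FC of 0.63. Ptprz1, a receptor phosphatase that binds tenascin-C, fell (log2 FC -1.22), from 13.1 to 24.1 CPM in the WT libraries to 5.41 to 8.38 CPM in the E6 libraries.

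Of 18 tested genes of the TGF-beta pathway, which is known to induce fibronectin and tenascin-C in many cells, 4 rose, 0 fell and the median log2 FC was 0.09. Of all tested genes 11.3% were DE in this contrast and 5.22% were DE upward. The ligand Tgfb1 was at 29.5 ± 6.06 CPM in WT and 55.8 ± 6.27 CPM in E6 (log2 FC 0.91), and Pmepa1 (0.85) and Smad7 (0.66), both known as feedback inhibitors of the pathway, also rose. Of 19 tested YAP and TEAD targets other than Ctgf and Cyr61, 2 rose, 0 fell and the median was 0.28. Leaving out WT after adhesion library 2 raised the counts of DE receptors and of DE YAP and TEAD targets. The count over all tested genes also rose in that fit, so the rise is not read as particular to these lists. Without E6 after adhesion library 2 the count of DE receptors and that over all tested genes both fell. The 2 YAP and TEAD targets that rose were Ankrd1, a nuclear ankyrin repeat protein (98.6 ± 31.4 CPM in WT and 251 ± 13.9 CPM in E6, log2 FC 1.37), and F3, encoding tissue factor (0.77). Of 14 tested actin and serum response factor genes 0 were DE, and their median was 0.23. Under DESeq2 or the GC correction 1 was DE, and more were without WT after adhesion library 2.

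The remaining lists held structural neighbours of the 10. Of 11 tested basement membrane partners of perlecan, Lamb1, a laminin beta chain, rose (log2 FC 0.74, 165 ± 8.07 to 275 ± 12.0 CPM) and Col18a1, the collagen that carries endostatin, fell (log2 FC -0.68). The WT library with the unusual GC slope was at 226 CPM of Col18a1, inside the E6 range of 211 to 236 CPM, the other 3 WT libraries were at 406 to 418 CPM, and the gene was not DE in 7 of 14 alternative fits, the 7 that left out a library other than that one. Of 7 other matricellular proteins tested only Pxdn, encoding the peroxidasin that crosslinks collagen IV, was DE (0.82), and of 7 other elastic fibre and fibulin genes 0 were. Over the 14 alternative fits the DE genes numbered 1 to 3 of the basement membrane partners, 1 to 2 of the matricellular proteins and 0 to 1 of the elastic fibre and fibulin genes. Of 4 tested small proteoglycans and lecticans only Prg4 was DE (1.56), a gene under the level set for naming and named after its values were seen, DE in 4 of 14 alternative fits, at 0.0737 to 0.284 CPM in WT, 0.208 and 0.214 CPM in E6 before adhesion and 1.14 CPM in both E6 libraries after it. Across adhesion averaged over the cell types, the DE genes of the 8 lists were Itga4, Srgn and Tgfbi, in E6 alone they were these 3 and Prg4, and in WT alone there were none. Itga4, Srgn and Tgfbi, also named after their values were seen, were at 0 to 0.0694 CPM before adhesion and at no more than 8.44 CPM after it. The summed thymocyte markers were higher in the same libraries, as were the myeloid markers Lyz2 and C1qa, from 0 CPM before adhesion to as much as 6.52 and 2.45 CPM after it. The 14 myeloid markers in the files summed to 72.4 and 80.0 CPM before and 51.0 and 77.0 CPM after adhesion in WT and to 68.5 and 58.9 CPM before and 72.5 and 73.1 CPM after it in E6, of which Csf1r made up 39.2 to 65.9 CPM. The part of thymocyte and myeloid RNA in the values of these 3 genes was not tested.

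**Figure D4:**
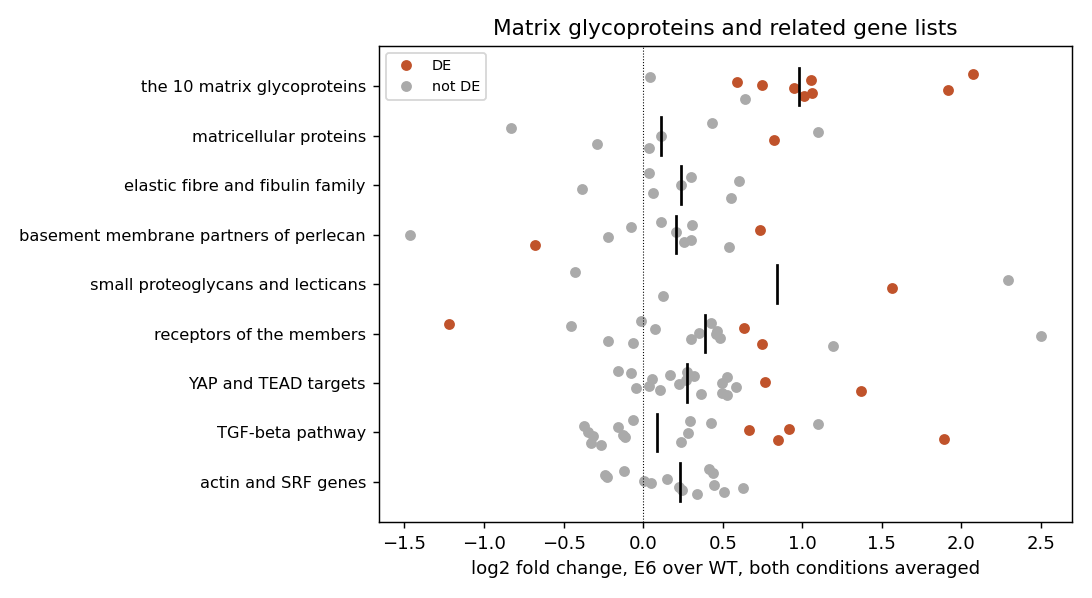
Log2 fold change of E6 over WT averaged over both conditions (x axis) for the tested genes of the 10 matrix glycoproteins and of 8 lists of related genes (rows), coloured where DE, with a vertical bar at the median of each row and points spread vertically only for legibility. The 10 matrix glycoproteins, chosen with this contrast in view, have a median of 0.98. The 8 lists, also chosen with earlier results of these data known, have medians of 0.09 to 0.84.

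The genes whose pattern over the 8 libraries was nearest to that of Tnc were sought by the root mean square (RMS) difference of log2 CPM, each gene centred on its own mean. They were 5830416P10Rik (RMS difference 0.15), Il24 (0.16), a cytokine of the interleukin-10 family, and 4930486L24Rik (0.17). Il24 was at 9.80 to 13.4 CPM in WT and at 42.2 to 53.8 CPM in E6. Of the other 9 matrix glycoproteins the nearest was Ecm1 (0.53), in place 123 among the tested genes, followed by Spp1 (0.55) in place 139. The pattern of Tnc is mostly its step between E6 and WT, so nearness to it mainly reflects the size of that step. Shared regulation was not tested.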

How the data were processed

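RNA of 8 mouse mTEC cultures was sequenced, 2 libraries for each of 4 conditions. The authors aligned reads with STAR 2.5.0a and counted them per gene symbol with HTSeq, and the deposited values are raw counts. Each file ends in 5 summary rows (no feature, ambiguous, not unique and the like) with 21.2% to 33.3% of alignments, which were left out. In 1 file 18 symbols appeared as dates, and the row order shared by all files gave the symbols back. Some genes of the marker lists were not analysed here.

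Counts were filtered with filterByExpr, scaled by TMM (factors 0.9377 to 1.0275) and fitted with edgeR 4.0.16 in R 4.3.3, with 1 mean per condition over all 8 libraries. DE genes had a Benjamini-Hochberg FDR under 0.05 over 11672 genes and an FC of at least 1.5. SE is the absolute log2 FC over the root of the F statistic and may be too small for low genes. CPM uses TMM-scaled library sizes. Reads carried no molecular identifiers, so amplification was not measured apart from the spread between libraries on which the intervals rest. The procedure was tested on simulated counts.

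Genes named are the 10 matrix glycoproteins, up to 4 DE genes per list, largest log2 FC first, whose mean log2 CPM was 1 or more (1 such gene is not reported here), and the 3 genes nearest to Tnc. The 10 genes and all lists were chosen with earlier results of these data known. Positions, length and GC content came from GENCODE vM21 on GRCm38 (22740 symbols matched, 934 through an older symbol, 378 unmatched) and promoters from RefSeq. Alternatives were RLE size factors, DESeq2 1.42.0 (the authors' tool), no count filter, a replicate block and culture time as a term. Others were a GC correction by a smoothed curve on GC content, no FC limit, only the libraries compared, and each library left out. For the list genes these were added after seeing the data. Python 3.11.15, numpy 2.4.6, pandas 2.3.3 and matplotlib 3.10.9 were also used. Proteins and isoforms were not analysed here.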

Additional observations from a re-analysis of the deposited data

How the results depend on the processing

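For E6 against WT averaged over both conditions, the number of the 10 genes that were DE was 8, and 6 to 8 when any library was left out, with 7 to 9 under the other alternatives. Before adhesion it was 6, became 3 with culture time as a term, and was 1 to 8 when any library was left out. After adhesion it was 6, became 0 with only the 4 libraries compared, where 0 of all tested genes were DE, and was 1 to 9 when any library was left out. For adhesion averaged, adhesion in WT, adhesion in E6 and their difference it was 0 under every alternative, except that leaving out a library gave ranges of 0 to 1, 0 to 2, 0 to 0 and 0 to 3.

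The log2 FC of each of the 10 genes between E6 and WT kept its direction and call in 124 of 140 repeats, lost the call in 11, gained it in 4 (all Ctgf) and turned in 1, where Thbs1 ranged from -0.0071 to 0.12 over libraries left out. For adhesion averaged 130 of 140 were alike, 1 became DE and 9 turned. The turns were those of Fn1 and Cyr61 with the GC correction (0.048 and 0.035) and, over libraries left out, of Fn1 (-0.063 to 0.026), Tnc (-0.15 to 0.027), Ctgf (-0.29 to 0.08) and Cyr61 (-0.17 to 0.086). None of these was DE, and the cause was not tested. The list genes named kept their direction in 14 alternatives each, chosen after seeing the data, and calls were lost for Col18a1 (7), Cd44 (5), Itgb6 (1, at 0.58 without E6 after adhesion library 2) and Smad7 (1, at 0.55 with the GC correction). DE receptors ranged from 1 to 7 and DE YAP and TEAD targets from 2 to 6, against 3 and 2.

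The replicate numbers are shared by the conditions in the labels. Libraries with the same number deviated together in WT (correlation 0.222 over 9768 genes) but not in E6 (-0.079) or between the cell types (-0.047 to 0.023), so the numbers were not read as pairs. With a replicate block 9 of the 10 were DE between E6 and WT averaged, 6 before adhesion, 7 after adhesion and 0 in every comparison of adhesion, and over all genes 1274 were DE between E6 and WT averaged against 1324 without it, 383 against 585 before adhesion and 139 against 221 for adhesion averaged. Over libraries left out, the DE genes among all tested numbered 671 to 2557 for E6 against WT averaged, 37 to 1512 before and 27 to 4500 after adhesion (1040 with all libraries), 39 to 1341 for adhesion averaged, 0 to 3550 in WT (0), 0 to 643 in E6 (234) and 0 to 3049 for the difference (0). With culture time as a term they were 345 before adhesion, 124 for adhesion averaged and 142 in E6, and with only the libraries compared 1457 before adhesion and 537 for adhesion in E6. Before adhesion they were 903 with the GC correction, and without the FC limit 2444 for E6 against WT averaged. Depth limits Efemp2, with 1 to 60 counts a library.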
